A study of Homo sapiens with 6 samples.

Results

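The untreated control cultures of the B-lymphoblastoid cell line (LCL) GM12873 were 3 of the 6 samples of the series, and they are described here on their own. They were chosen by their treatment label, non-lyophilized (control), and the remaining 3 samples, which had been freeze-dried, were not used here. An LCL is a line of B cells immortalised with Epstein-Barr virus. Each control sample was an aliquot of 1 growing culture, washed in PBS and taken up in trizol, and its polyadenylated RNA was sequenced. All 3 came from a single line, so the spread between them does not describe other lines, and nothing in the labels says how far apart in time the cultures were grown. Each culture gave 1 library, and differences between cultures, RNA preparations and libraries cannot be told apart.

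The values are FPKM (fragments per kilobase of transcript, scaled to the number of mapped reads), which are scaled for transcript length and can be compared between genes. The tables listed 23284 gene symbols, of which 1624 name small RNAs that lack a poly(A) tail, and the other 21660 genes are described. A gene with a mean above 1 FPKM was called expressed. No group was compared with another, and no test was run. FPKM tables hold no read counts, but the steps between low values put the depth of culture 2 at 1.38 times and that of culture 3 at 1.66 times that of culture 1. Among the controls, the authors list the first with the fewest raw reads, the lowest share of uniquely mapped reads and the highest duplication rate. Summed FPKM values were 508465, 470087 and 468790 in cultures 1, 2 and 3.

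Resting B cells are small and quiescent, and carry a B-cell receptor whose signal passes through CD79A and CD79B. In an LCL, proteins of Epstein-Barr virus take the place of receptor and CD40 signals, and the cells divide continuously in a state that resembles an activated B-cell blast. Such cells display large amounts of MHC class II molecules, secrete chemokines of the CCL family and depend on NF-κB activity.

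The 4 markers that define the line as B-cell derived were all above 1 FPKM in every culture. CD79A, the signalling chain of the B-cell receptor, was at 377, 243 and 350 FPKM in cultures 1, 2 and 3. MS4A1, which encodes CD20, was at 333, 295 and 260 FPKM, and PAX5, the transcription factor that keeps B cells committed to their lineage, was at 24.1, 24 and 28.5 FPKM. CD74, the invariant chain of MHC class II, was far above the others at 2864, 2159 and 2445 FPKM and ranked 16 among all genes. The order of the cultures differed from marker to marker, with culture 1 highest for CD79A, MS4A1 and CD74 and culture 3 highest for PAX5.

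Several of the most abundant messages have an unbroken run of pyrimidines at or near their start, a feature known from mRNAs whose translation follows the growth state of the cell. The first 20 transcribed bases of 5 such genes and of 2 B-cell genes and a cell-cycle gene are shown for comparison, because many ribosomal protein genes have this feature while other leading genes, such as CD74 and TMSB4X, do not. They were taken from RefSeq on GRCh38.p14 and are written 5′ to 3′, and capitals mark the longest run of C and T where it has at least 6 bases.
RPLP1 (chr15:69452818-69452837, plus strand): CCCCTTTCCTCagctgccgc
RPLP2 (chr11:809967-809986, plus strand): CCTTTTCCTCCCTgtcgcca
RPS19 (chr19:41860255-41860274, plus strand): CCCTTTCCCCTggctggcag
RPL37A (chr2:216498844-216498863, plus strand): CTTTCTgggctcggacctag
TPT1 (chr13:45341164-45341183, minus strand): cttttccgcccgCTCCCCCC
CD79A (chr19:41877279-41877298, plus strand): caaactaaccaacccactgg
CD74 (chr5:150412891-150412910, minus strand): atcctgccccgcaaaaggca
MKI67 (chr10:128126404-128126423, minus strand): agaaggaagtggagggctga
The runs are 11, 13, 11, 6 and 8 bases long in RPLP1, RPLP2, RPS19, RPL37A and TPT1. Of 78 annotated starts of 63 cytosolic ribosomal protein genes, 58 (74.4%) had such a run within their first 20 bases, against 20.4% of all 35116 starts in the table. Among the starts of translation factor genes, 15 of 37 (40.5%) had one. RPS19 has a further annotated start with a longest run of 2 bases, so the match depends on the start that is used.

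Among the genes measured, which include none of the mitochondrial chromosome, ribosomal protein genes and genes of the actin cytoskeleton were the most abundant. Of the 25 most abundant genes, 16 encoded cytosolic ribosomal proteins, and together the 25 held 19.3%, 16.3% and 17.0% of the summed FPKM of the described genes in cultures 1, 2 and 3, a mean of 17.6% ± 1.56 (SD, n = 3). The set itself was much the same in each culture, with 23 genes among the 25 highest of all 3 cultures and 27 in the union. Of the 100 most abundant genes, 56 were ribosomal.

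**Figure D1:**
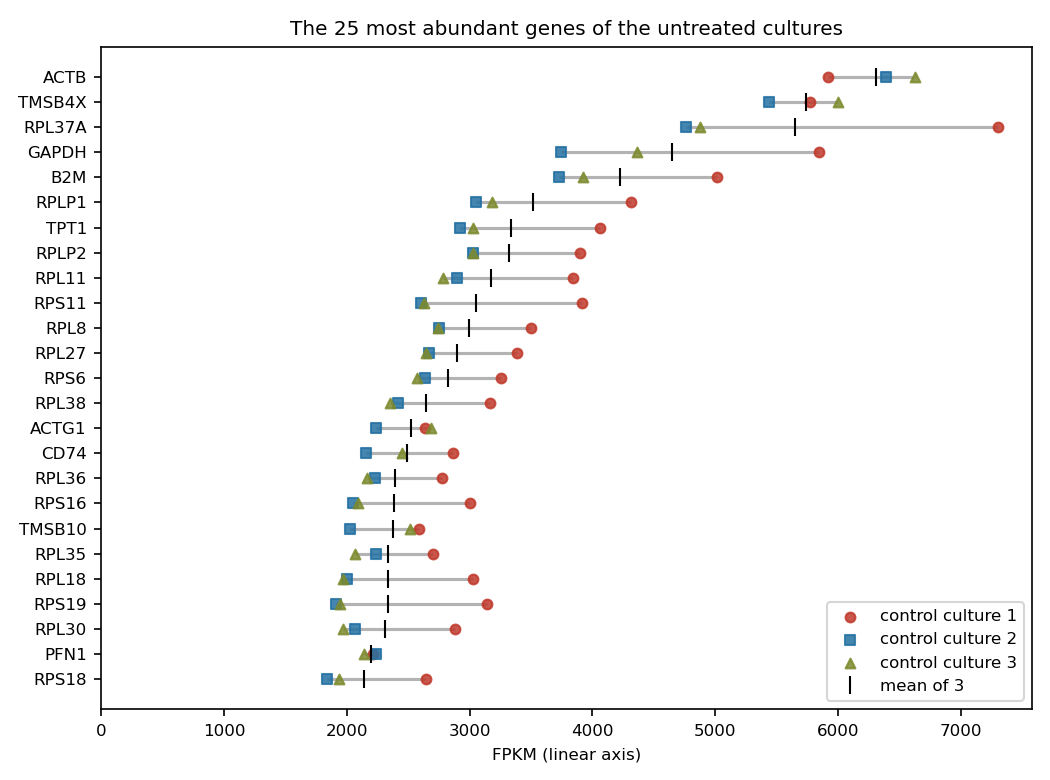
FPKM of the 25 most abundant genes in each of the 3 untreated control cultures, on a linear axis, with a bar for the mean and a grey line from the lowest to the highest culture. Culture 1 was the highest in 21 of the 25, and ACTB and PFN1, with a CV of 5.70% and 2.19%, were spread less than the ribosomal protein genes.

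ACTB (hg19 chr7:5566779-5570232), cytoplasmic β-actin, was the most abundant gene measured, at 5919, 6391 and 6626 FPKM. TMSB4X, which encodes the actin-sequestering peptide thymosin β4, followed at 5773, 5439 and 6003 FPKM. The 3 other genes of actin dynamics in the leading 25 were ACTG1 (mean 2521 ± 245 FPKM), TMSB10 (2375 ± 306) and PFN1, profilin (2197 ± 48.2, SD, n = 3 each). Culture 1 was the lowest for ACTB and lay between the others for TMSB4X, ACTG1 and PFN1, unlike most of the leading genes.

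RPL37A (hg19 chr2:217363520-217366188), a protein of the large ribosomal subunit, was at 7309, 4760 and 4874 FPKM, and culture 1 stood well above the other two. RPLP1 and RPLP2, which form the acidic stalk of the ribosome, were at means of 3514 ± 694 and 3319 ± 504 FPKM. TPT1, a growth-related protein, was at 4062, 2921 and 3024 FPKM and so had the same pattern as the ribosomal genes. Of the 79 cytosolic ribosomal protein genes, 76 had a mean above 100 FPKM, against 3.03% of all described genes, and their summed FPKM made up 27.1%, 21.6% and 21.7% of the total in cultures 1, 2 and 3.

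The remaining leading genes were of glycolysis and antigen presentation. GAPDH, a glycolytic enzyme, was at 5845, 3743 and 4365 FPKM. B2M, the light chain of MHC class I, was at 5012, 3731 and 3927 FPKM. Both were highest in culture 1 and lowest in culture 2. Glycolysis genes were abundant as a group, with 14 of 23 above 100 FPKM on average, against 3.03% of all described genes. ENO1 (1786 ± 249), ALDOA (1300 ± 177), PKM2 (1090.5 ± 10.4) and LDHA (830 ± 36.5) led it after GAPDH. All 38 respiratory chain genes listed were above 1 FPKM in every culture, against 49.2% of all described genes. They were led by COX7C at 858 ± 87.6 FPKM and ATP5B at 586 ± 53.2 FPKM. The tables used here hold no record on the mitochondrial chromosome, so the chain's mitochondrially encoded members were not measured.

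Expression was concentrated in few genes. A total of 11025 genes were expressed by their mean, and 10661 of 21660 (49.2%) were above 1 FPKM in every culture. Per culture the number was 11022, 10985 and 11041. Only 67 genes had a mean above 1000 FPKM, and these held 31.4% of the summed mean FPKM. The 590 genes between 100 and 1000 FPKM held 30.9%, the 5021 genes between 10 and 100 FPKM held 32.0%, and the 5347 genes between 1 and 10 FPKM held 5.41%. At the other end, 4499 genes were listed at 0 in all 3 cultures.

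B-cell genes were expressed broadly, and most listed genes of other blood and tissue cell types were below 1 FPKM, with exceptions such as NCR3 and CD28. Of 25 genes of the B-cell receptor pathway and B-cell surface, 23 (92.0%) were above 1 FPKM in every culture, and of 20 B-cell transcription factors 18 were, against 49.2% of all described genes. The 4 members below 1 FPKM in every culture were BANK1, FCRL1, BACH2 and BHLHE41. BACH2, a repressor that is known to restrain plasma cell differentiation, was at 0.0329, 0 and 0.00993 FPKM, and FCRL1, an Fc receptor-like protein of the resting B-cell surface, was at 0, 0.0192 and 0 FPKM.

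**Figure D2:**
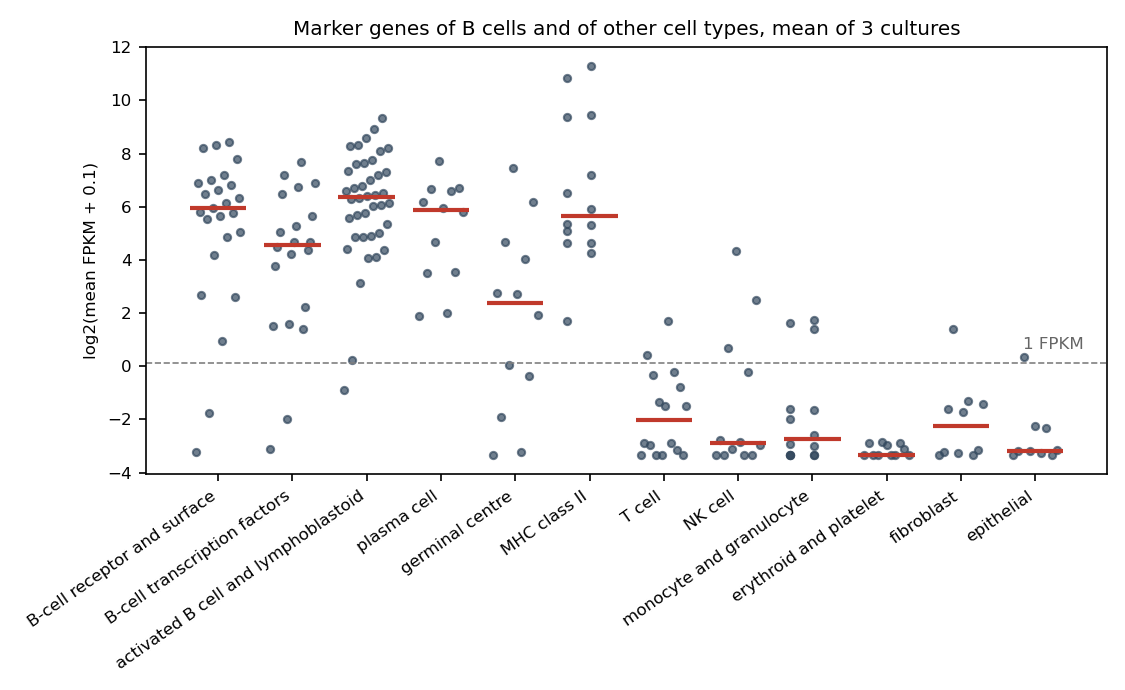
Mean FPKM over the 3 cultures for every gene of 12 marker lists, as log2(mean FPKM + 0.1), with 1 point per gene and a red line at the list's median. The B-cell, activation, plasma cell and MHC class II lists lie mostly above the dashed line at 1 FPKM, and the T-cell, NK-cell, monocyte, erythroid, fibroblast and epithelial lists lie mostly below it.

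The receptor list was led by CD53, a tetraspanin of leukocytes, at 383, 272 and 377 FPKM, together with CD79A and MS4A1. CD37, another tetraspanin, was at 298, 152 and 221 FPKM, and CD22, an inhibitory co-receptor, was at 175, 111 and 159 FPKM. CD40, the receptor for T-cell help, was at 176, 106 and 99.5 FPKM. For CD37 and CD22 culture 2 was the lowest, whereas for CD40 culture 1 stood apart from both others. The adaptor BLNK (79.4 ± 2.53 FPKM, SD, n = 3) differed little between cultures. CR2 encodes CD21, the B-cell receptor for Epstein-Barr virus, and was at 51.4, 53.2 and 44.9 FPKM.

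Among the transcription factors the co-activator POU2AF1 was the most abundant at 208, 185 and 226 FPKM. IRF4, a factor of activated B cells and plasma cells, was at 114, 174 and 156 FPKM. BATF, an AP-1 family factor induced in LCLs, was at 120, 105 and 99.8 FPKM. These levels were several times that of PAX5. EBF1, a factor of early B-cell commitment, was at 3.13, 2.52 and 2.72 FPKM, and IKZF1 was at 3.04, 2.20 and 2.40 FPKM, so both were expressed but low.

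Genes of the activated B cell and of LCLs were abundant. Of 40 listed, 38 were above 1 FPKM in every culture, against 49.2% of all described genes. A mean above 100 FPKM was found for 16, against 3.03% of all described genes. CD48, an adhesion molecule known to be induced by Epstein-Barr virus, was at 938, 442 and 558 FPKM. FCER2, which encodes the activation marker CD23, was at 649, 381 and 412 FPKM, and EBI3, named for its induction by the virus, was at 453, 234 and 210 FPKM. Culture 1 was the highest for all of them, and for CD48 and EBI3 by a wide margin. CD70, a ligand of the TNF family, was at 441, 238 and 295 FPKM.

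Of the chemokine genes of the list, CCL3 was at 584, 259 and 325 FPKM, CCL22 at 346, 245 and 226 FPKM and CCL4 at 309, 156 and 193 FPKM. CCL5 was lower at 87.0, 62.4 and 48.2 FPKM, and CCL17 was at 13.1, 24.98 and 13.7 FPKM with culture 2 the highest. NF-κB target and pathway genes included NFKBIA, the inhibitor IκBα, at 213, 129 and 132 FPKM and NFKB2 at 133, 83.6 and 74.8 FPKM. MIR155HG, the host transcript of miR-155, was at 174, 146 and 125 FPKM, and MYC was at 124, 98.3 and 106 FPKM. In each of the genes named here other than CCL17, culture 1 was the highest.

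Genes of several B-cell stages differed in how many were expressed. All 12 plasma cell genes listed were above 1 FPKM in every culture, against 49.2% of all described genes. MZB1, an endoplasmic reticulum chaperone of antibody-making cells, led them at 203, 219 and 210 FPKM. XBP1 was at 109, 97.8 and 102 FPKM. PRDM1, the factor that drives plasma cell differentiation, was lower at 3.30, 3.97 and 3.49 FPKM. Of the 12 germinal centre genes, 7 were above 1 FPKM in every culture (58.3%), a share near the 49.2% of all described genes. BCL6, the central germinal centre factor, was at 0, 0.0184 and 0 FPKM, and MME was listed at 0 in every culture. TCL1A, a gene of naive B cells, was at 89.1, 126 and 133 FPKM and CD27, a gene of memory cells, was at 125, 78.6 and 96.2 FPKM.

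All 14 genes of the MHC class II list and all 18 of the class I antigen presentation list were above 1 FPKM in every culture. The share over all described genes was 49.2%. HLA-DRA was at 2369, 1547 and 1587 FPKM, and the lysosomal reductase IFI30 at 834, 588 and 572 FPKM. CIITA, the activator of class II transcription, was at 19.6, 17.8 and 19.2 FPKM, and its partner RFX5 at 42.9, 40.7 and 40.1 FPKM. Both factors differed far less between the cultures than HLA-DRA, for which culture 1 stood above the others. Reads of the polymorphic HLA genes were mapped to 1 reference allele, which can lower their FPKM.

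The lists of other cell types held few genes above 1 FPKM in every culture, against 49.2% of all described genes. The T-cell list had 1 of 16 above 1 FPKM in every culture, CD28 at 3.30, 2.80 and 3.40 FPKM. In it 13 genes were below 1 FPKM in every culture, and 4 of these, CD2, CD3G, CD8A and CD8B, were listed at 0 throughout. The summed level of the T-cell list was 5.70 to 9.38 FPKM. The monocyte and granulocyte list had 3 of 14, namely S100A9, CD33 and ITGAM, with a sum of 8.55 to 10.4 FPKM, and LYZ, S100A8 and CD163 were listed at 0. The NK-cell list had 3 of 12. Its sum of 19.8 to 34.97 FPKM came mostly from NCR3, at 21.9, 13.9 and 25.2 FPKM, and KLRD1 and KLRF1 were listed at 0. Of the erythroid and epithelial lists no gene was above 1 FPKM in every culture, and of the fibroblast list 1 of 10 was (FBN1).

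The 3 cultures resembled each other closely but not equally. Over the expressed genes, Pearson's r of log2(FPKM + 0.1) was 0.965 between cultures 1 and 2, 0.979 between 1 and 3 and 0.989 between 2 and 3, and Spearman's rho was 0.966, 0.980 and 0.990. These are correlations across genes, which are not independent replicates. For genes with a mean of at least 10 FPKM, 5678 in all, the coefficient of variation (CV, SD over mean of the 3 cultures) had a median of 12.5%, and the highest culture was 1.27 times the lowest in the median gene.

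A gene of that level was called variable where its highest culture was at least 2 times its lowest. This held for 183 of 5678 genes (3.22%). In 105 of them (1.85% of the 5678) culture 1 stood apart as the low one, and in 47 (0.828%) it stood apart as the high one. Culture 2 stood apart in the remaining 31 genes, 15 times high and 16 times low, and culture 3 in none. The split between low and high depended on the scaling between cultures. With each culture scaled by its median ratio to the gene means, culture 1 was low in 63 and high in 72 of 169 variable genes, and with equal summed FPKM it was low in 236 and high in 16 of 281. Leaving out culture 1 left 4 variable genes, and leaving out culture 2 left 28, so that the contrast of those cultures made up most of the set. The genes nearest to the limit were TOP2A (2.01 times) and SUPT16H (2.01) inside it and CTR9 (2.00) and LTV1 (2.00), just under 2 before rounding, outside it.

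GC content and transcript length moved with the deviations of the cultures, but not in the same pattern. A coding transcript was in the annotation for 5062 genes (89.2% of the 5678). In these, the deviation of a culture from the gene's mean was correlated with both by Spearman's rho. For GC content rho was 0.428 in culture 1, -0.443 in culture 2 and -0.120 in culture 3. For transcript length it was -0.191, 0.0915 and 0.276. The median GC content was 41.9% in variable genes low in culture 1, 59.1% in those high in culture 1 and 50.4% in all 5062 genes. After a smooth surface over GC content and length was subtracted in each culture, an alternative chosen after the data had been seen, 89 genes were variable instead of 171 of the same genes, and 69 were in both sets. Depth was lowest in culture 1 as well. The part of GC content, length and depth in the results that follow was not tested beyond this correction. Gene lists here and above were chosen with earlier results of these data known, so their counts are a description and not independent support.

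**Figure D3:**
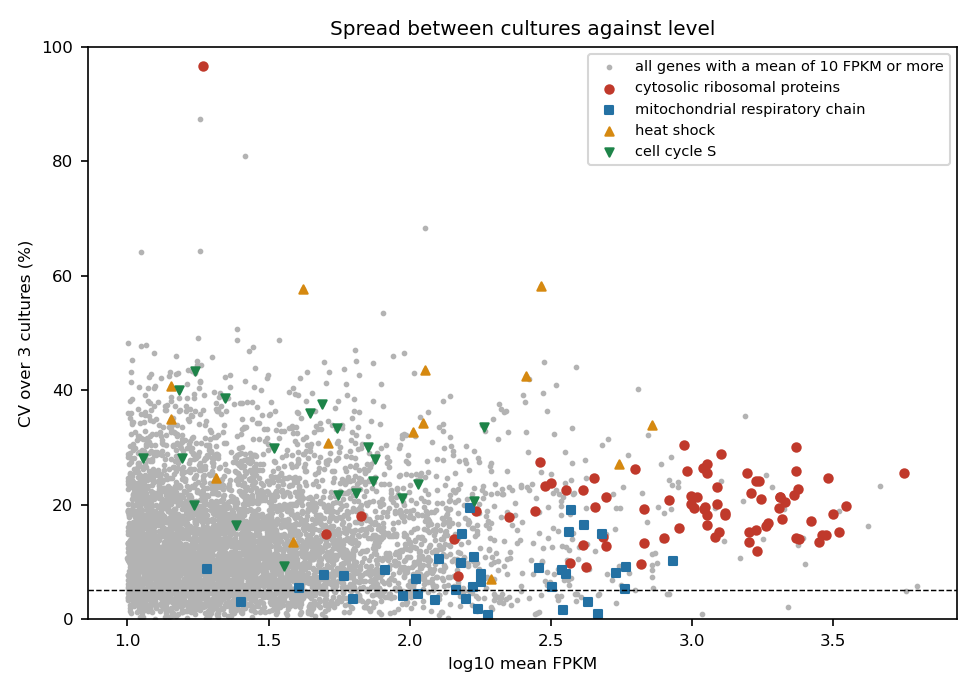
CV over the 3 cultures in percent against log10 of the mean FPKM for the 5678 genes with a mean of at least 10 FPKM, with 4 gene lists in colour and a dashed line at the 5% limit for stable genes. Ribosomal protein genes combine high levels with a median CV of 19.3%, heat shock genes have a median of 34.1%, and respiratory chain genes have a median of 7.55%.

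The genes of the cell cycle were lower in culture 1 than in both others almost without exception. Culture 1 was the lowest in 20 of 21 S phase genes and in 20 of 20 G2/M genes with a mean of at least 10 FPKM, against 52.98% of all genes of that level. The median ratio of culture 2 to culture 1 was 1.73 for the S phase list and 1.68 for the G2/M list, against 1.07 for all genes, and that of culture 3 to culture 1 was 1.62 and 1.41, against 1.06. Under both scalings and after the correction for GC content and length, culture 1 was still the lowest in 20 of 21 and 20 of 20 genes. Over all genes of that level it was the lowest in 2452 of 5691 with scaling by the median ratio. It was the lowest in 3846 of 5687 with equal summed FPKM and in 2199 of 5062 after the correction.

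PCNA, the sliding clamp of DNA replication, was at 120, 243 and 188 FPKM. CDC6, which loads the replicative helicase, was at 9.04, 21.2 and 15.4 FPKM. Culture 2 was the highest and culture 1 the lowest for each. Of the 21 S phase genes, 7 were variable (33.3%, against 3.22% of all genes of that level), all with culture 1 low. After the correction 3 were, against 89 of all 5062 corrected genes. CDT1 was the exception in the list at 35.9, 32.5 and 39.2 FPKM, with culture 2 the lowest.

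MKI67, the proliferation marker Ki-67, was at 16.9, 42.9 and 34.2 FPKM. KIF11, a motor of the mitotic spindle, was at 8.13, 20.8 and 15.5 FPKM, and TOP2A, the topoisomerase that untangles chromosomes, was at 31.2, 62.7 and 45.9 FPKM. The order was culture 1 lowest, culture 3 between and culture 2 highest in all 20 G2/M genes. Of all 5678 genes with a mean of at least 10 FPKM, 2259 had this order. Of the 20 G2/M genes, 5 were variable, against 3.22% of all genes of that level. After the correction 1 was, against 89 of all 5062 corrected genes. CCNB1, a cyclin of mitotic entry, had the same order with a smaller span, at 57.8, 87.1 and 70.2 FPKM.

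The 120 bases before the starts of MKI67 and KIF11 are shown because they hold the CHR, an element known from promoters of G2/M genes (letters TTTGAA, searched on both strands). Capitals mark the matches, and the sequences are from RefSeq on GRCh38.p14, 5′ to 3′ on the gene's strand.
MKI67 (chr10:128126424-128126543, minus strand): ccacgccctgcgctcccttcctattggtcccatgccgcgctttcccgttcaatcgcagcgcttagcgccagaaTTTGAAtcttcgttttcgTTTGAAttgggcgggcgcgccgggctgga
KIF11 (chr10:92593010-92593129, plus strand): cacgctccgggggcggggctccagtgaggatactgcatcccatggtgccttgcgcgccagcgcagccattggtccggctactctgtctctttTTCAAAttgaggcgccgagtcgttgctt
Within 250 bases before the start, 11 of 20 windows of G2/M genes (55.0%) held the CHR letters, against 13.3% of all windows and 2 of 26 windows of S phase genes. TOP2A had none within the 120 bases before its start. A match of letters does not show that a factor binds there.

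Heat shock genes had the widest spread of the lists, with culture 2 the highest. Of 14 genes with a mean of at least 10 FPKM, 5 were variable (35.7%), against 3.22% of all genes of that level, and the median ratio of culture 2 to culture 1 was 1.86. After the correction for GC content and length 5 were variable as well, against 89 of all 5062 corrected genes. They were not the same ones, since HSPD1 fell to 1.99 times. The count was 10 with equal summed FPKM, and it was 0 without culture 1 and 0 without culture 2. The ratio of culture 3 to culture 1 was 1.24, so that culture 3 lay nearer to culture 1 here. HSP90AA1 (hg19 chr14:102547075-102606086), the inducible cytosolic HSP90, was at 148, 479 and 248 FPKM. HSPH1, which encodes the chaperone HSP110, was at 21.0, 68.3 and 36.4 FPKM. HSPD1 and HSPE1, the partner chaperonins of mitochondria that share 1 bidirectional promoter, were at 153, 373 and 250 FPKM and at 71.2, 168 and 101 FPKM.

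HSPA8, the constitutive HSC70, was at 537, 1003 and 633 FPKM, and culture 2 stood above both others. The HSP70 genes that are most strongly heat-induced were low, with HSPA1A at 10.1, 19.8 and 12.9 FPKM and HSPA1B at 10.3, 20.9 and 11.5 FPKM. These 2 genes are near-identical copies, and their values are uncertain because shared reads could be discarded or split between them. Discarded reads would lower both values. HSPB1 (192, 209 and 181 FPKM) and HSF1 (44.2, 33.9 and 37.6 FPKM), the factor that activates heat shock genes, spanned less, and culture 2 was the lowest for HSF1. HSPA5 and HSP90B1, chaperones of the endoplasmic reticulum, were also variable, though not after the correction, at 89.9, 187 and 117 FPKM and at 144, 298 and 205 FPKM. The unfolded protein and integrated stress response list as a whole did not have this order. Of its 21 genes with a mean of at least 10 FPKM, 2 were variable (9.52%, against 3.22% of all genes of that level). Culture 1 was the highest in 11 (52.4%, against 32.4% of all genes of that level). The list's median ratio of culture 2 to culture 1 was 0.933, against 1.07 for all genes.

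The promoter stretches of HSP90AA1, HSPA8 and DNAJB1 are shown because they hold the heat shock element (letters GAANNTTC, the same on both strands), which is marked in capitals in the 120 bases before 1 annotated start of each gene.
HSP90AA1 (chr14:102087045-102087164, minus strand): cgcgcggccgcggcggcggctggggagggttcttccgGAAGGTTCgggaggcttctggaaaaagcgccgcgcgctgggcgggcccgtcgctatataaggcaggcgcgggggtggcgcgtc
HSPA8 (chr11:123062137-123062256, minus strand): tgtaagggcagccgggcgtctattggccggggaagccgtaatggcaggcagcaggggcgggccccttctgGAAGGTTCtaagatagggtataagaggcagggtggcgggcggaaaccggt
DNAJB1 (chr19:14518398-14518517, minus strand): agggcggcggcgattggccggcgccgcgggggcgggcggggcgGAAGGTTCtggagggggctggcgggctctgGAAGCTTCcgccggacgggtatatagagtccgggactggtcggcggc
The letters were in 9 of 20 windows of 250 bases before heat shock gene starts (45.0%), against 5.78% of all windows. HSP90AA1 and HSPA8 had 1 match each in the stretch shown and DNAJB1 had 2, while other annotated starts of HSP90AA1 and DNAJB1 had none. The start of HSPH1 and both starts of HSPD1, genes with a wider span than HSPA8 or DNAJB1, had no match in their 120 bases. DNAJB1, a co-chaperone of HSP70, was at 17.8, 26.5 and 17.5 FPKM.

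**Figure D4:**
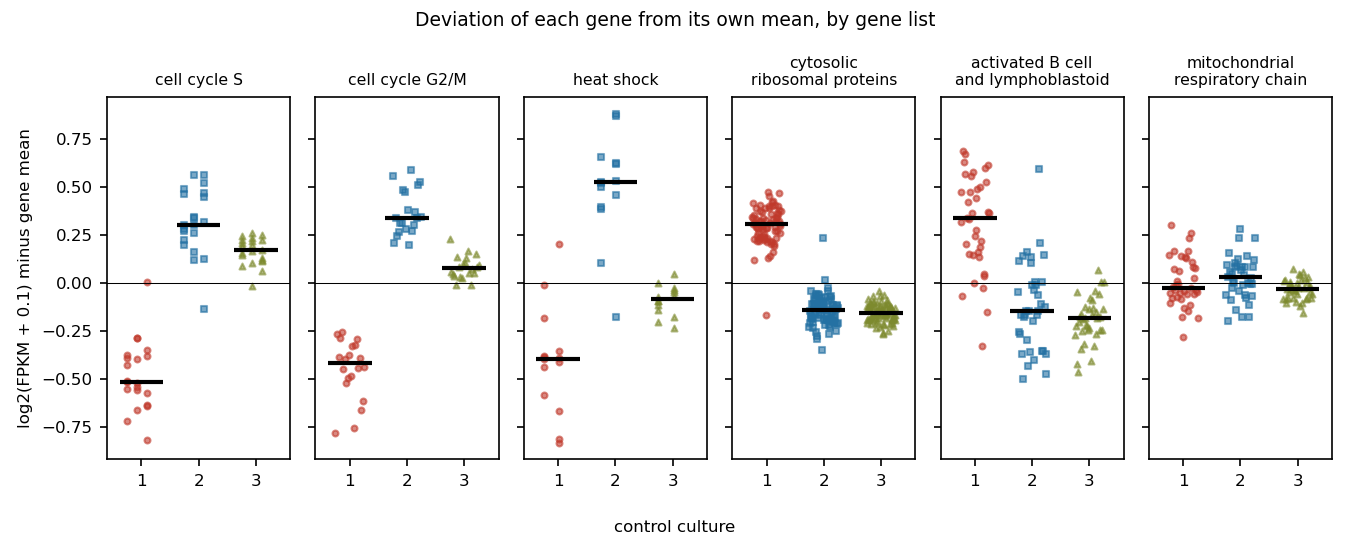
Deviation of each gene from its own mean over the 3 cultures, in log2(FPKM + 0.1), for 6 gene lists and genes with a mean of at least 10 FPKM, with black lines at the list's median (RPL21 is left out). Culture 1 lies below the others for both cell cycle lists and above them for the ribosomal and activation lists, culture 2 lies above for heat shock, and the respiratory chain genes lie near 0 in all cultures.

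Ribosomal protein genes and activation genes had the opposite direction, with culture 1 the highest. Culture 1 was the highest in 77 of 79 ribosomal genes and in 30 of 37 activation genes, against 32.4% of all genes of that level. The median ratio of culture 2 to culture 1 was 0.738 and 0.717. With scaling by the median ratio the counts were 77 and 32, against 2363 of all 5691 genes of that level. With equal summed FPKM they were 76 and 27, against 1122 of 5687. After the correction for GC content and length they were 75 of 78 and 33 of 36, against 2043 of 5062. RPS19 had the widest span of the ribosomal genes among the 25 most abundant, at 3143, 1909 and 1945 FPKM.

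Few of these genes passed the limit for variable. Of the 37 activation genes 4 passed (10.8%, against 3.22% of all genes of that level), namely CD48, CCL3, EBI3 and CCR7, the last a lymph node homing receptor at 116, 66.8 and 54.3 FPKM. The count was 8 with scaling by the median ratio and 2 with equal summed FPKM, and EBI3 was under the limit with equal summed FPKM (1.96 times) and after the correction for GC content and length (1.98 times). RPL21 passed among the ribosomal genes, at 19.9, 0.00129 and 35.8 FPKM. RPL21 has many near-identical copies in the genome, and its value is uncertain. Immediate early genes also tended to be highest in culture 1 (12 of 14, against 32.4% of all genes of that level). Among them ZFP36, which destabilises cytokine mRNAs, was variable at 88.6, 39.9 and 61.9 FPKM, and DUSP2, a phosphatase of MAP kinases, was at 295, 150 and 175 FPKM.

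Apart from RPL21, which had the largest spread, the 15 most variable genes included 6 in which culture 1 stood apart as the high one and 6 in which it stood apart as the low one. Culture 2 stood apart as high in HSPH1 and HSP90AA1. FXYD2 (hg19 chr11:117690790-117698807), a regulatory subunit of the sodium pump, was at 36.1, 10.0 and 7.85 FPKM, and TMEM120A was at 50.5, 12.7 and 15.2 FPKM. SAT1, which breaks down polyamines, was at 201, 55.4 and 83.4 FPKM. VIM, the intermediate filament vimentin, was at 130, 48.2 and 64.2 FPKM, and GDF15, a stress-induced cytokine, was at 19.5, 6.76 and 7.36 FPKM. Culture 1 was the highest in each of these genes. After the correction for GC content and length the highest culture was still 3.91 times the lowest for FXYD2 and 4.06 times for SAT1.

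Genes low in culture 1 among the most variable included several of DNA replication and mitosis. FAM111B was at 5.58, 16.5 and 12.7 FPKM, BLM, a helicase of DNA repair, at 5.21, 13.5 and 12.1 FPKM, and ZWILCH, a kinetochore protein, at 5.85, 16.5 and 11.1 FPKM. PEG10, a retrotransposon-derived imprinted gene, was at 8.42, 22.1 and 22.2 FPKM, with cultures 2 and 3 nearly equal. Among genes with a mean of at least 100 FPKM, 20 of 657 were variable, and these included NCL, the nucleolar protein nucleolin, at 178, 413 and 298 FPKM and HNRNPA2B1, an RNA-binding protein, at 146, 342 and 270 FPKM. Both had culture 1 low and culture 2 high. After the correction for GC content and length HNRNPA2B1 was no longer variable at 1.80 times, and NCL (2.01), FAM111B (2.14), BLM (2.00) and ZWILCH (2.03) were near the limit.

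Genes of cholesterol and fatty acid synthesis had a different order, with culture 3 the highest in 21 of 23, against 21.9% of all genes of that level. FDPS, farnesyl diphosphate synthase, was at 364, 245 and 382 FPKM, SCD, the stearoyl-CoA desaturase, at 130, 118 and 188 FPKM and HMGCS1, which makes HMG-CoA, at 74.3, 65.9 and 102 FPKM. The median ratio of culture 3 to culture 1 was 1.17, against 1.06 for all genes. After the correction for GC content and length it was 1.12, against 1.01. Culture 3 was then the highest in 17 of 23, against 1064 of all 5062 genes. With scaling by the median ratio the count was 17, against 1109 of 5691. With equal summed FPKM it was 23, against 1759 of 5687.

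A gene with a mean of at least 10 FPKM was called stable where its CV was at most 5%. This held for 774 of 5678 genes (13.6%). The least variable were NDEL1, a dynein regulator, at 12.46, 12.47 and 12.47 FPKM, and GNG5, a G protein subunit, at 136.3, 136.4 and 136.7 FPKM. PATL1, PARP15, ADCK2, TTC31, SMG5, CARM1, RRAS2, PELI1, JOSD1, POLG, CCM2, DRG2 and TCTN3 completed the 15 lowest, and all had a CV of at most 0.500%. These 15 were picked as the lowest of 5678, and which genes were stable depended on the scaling. Of the 774 genes, 445 (57.5%) were also stable after scaling by the median ratio and 240 (31.0%) with equal summed FPKM. After the correction for GC content and length 316 (40.8%) were also stable, and the highest culture was 1.37 times the lowest for GNG5.

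The respiratory chain stood among the less variable lists. Of its 38 genes 11 were stable (28.9%), against 13.6% of all genes of that level, and none was variable. COX6A1 was at 188, 191 and 190 FPKM, ATP5I at 470, 466 and 461 FPKM and COX5A at 357, 349 and 346 FPKM. Stable genes in other lists included PKM2, at 1079, 1095 and 1098 FPKM, and SHMT2, a mitochondrial enzyme of serine metabolism, at 128, 126 and 127 FPKM. SDC1, the plasma cell surface marker syndecan-1, was at 25.1, 25.2 and 25.7 FPKM.

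Genes commonly used as references in RT-qPCR varied widely in how even they were. Of 30 such genes, 14 had a CV below the median of all genes of their level. Stable were 3 (10.0%), near the 13.6% of all genes of that level. PPIA, cyclophilin A, was at 275, 281 and 277 FPKM (CV 0.943%), and EMC7, listed as C15orf24, was at 36.7, 36.2 and 36.0 FPKM (CV 1.02%). SDHA, a subunit of succinate dehydrogenase, had a CV of 3.50%. ACTB had a CV of 5.70%, and GAPDH had a CV of 23.2%, with culture 1 at 1.56 times culture 2. TUBB, a tubulin, was at 653, 1054 and 856 FPKM (CV 23.4%), with the opposite order of cultures 1 and 2, and RPL13A had the largest CV of the 30 at 26.0%.

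**Figure D5:**
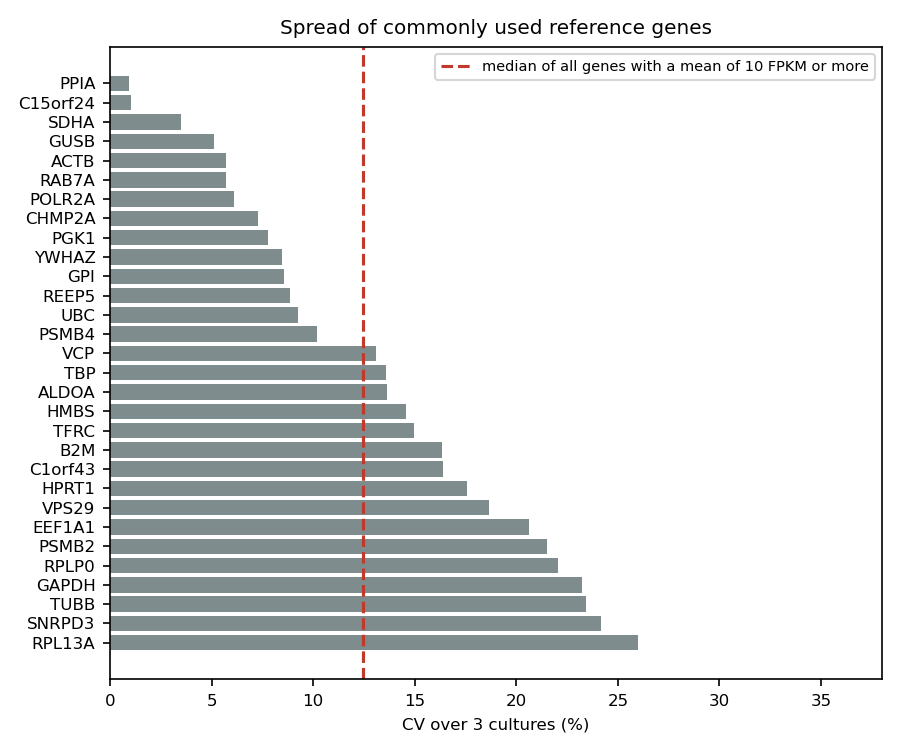
CV over the 3 cultures in percent for 30 commonly used reference genes, as bars from 0, with a dashed line at the median of all 5678 genes with a mean of at least 10 FPKM (12.5%). PPIA and C15orf24 (EMC7) have the shortest bars and RPL13A the longest.

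The order of the reference genes moved in part with the scaling. With scaling by the median ratio the CV of PPIA was 2.75%, that of SDHA 1.07% and that of GAPDH 27.0%, and with equal summed FPKM they were 6.25%, 8.90% and 17.6%. GAPDH, RPL13A and TUBB were above the median CV of all genes under each of these settings, whereas ACTB was below it under each (3.49% and 10.9% in the scaled values).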

How the data were processed

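Per the labels, poly(A) libraries were sequenced on a NextSeq 500, single-end. The submitters' processing notes name CASAVA 1.4, TopHat2 2.0.7, Cufflinks and hg19. The authors deposited 1 table of FPKM values per sample, made with Cufflinks after duplicates had been marked. The authors state that only reads with a single genomic position were kept, with TopHat limited to 1 alignment per read. The values of near-identical gene copies are uncertain for that reason. The Cufflinks version and the gene annotation are not given in the sources used here. The 3 control tables were joined by symbol and locus (24934 records each), and the record with the highest mean FPKM over the controls was kept for each symbol (543 symbols had more than 1 locus). Gene lists were written by hand. The members and lists were chosen with earlier results of these data known. Named genes were the 25 most abundant, the highest and the most spread members of each list, and the 15 most and 15 least spread genes with a mean of at least 10 FPKM (10 more from 100 FPKM), by the SD of log2(FPKM + 0.1). For 125 symbols no value is named, since their level can reflect 1 person. FPKM depends on the most abundant genes and, in short transcripts, on the assumed fragment length. Relative depth was the commonest ratio among values up to 0.15 FPKM, found in 366 of 1633 (cultures 2 and 1) and 343 of 1697 (3 and 1) records. Python 3.11.15, numpy 2.4.6, pandas 2.3.3 and matplotlib 3.10.9 were used.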

Additional observations from a re-analysis of the deposited data

How the results depend on the processing

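The number of expressed genes (11014 to 11036 with a culture left out), the share of the 25 most abundant genes (16.7% to 18.2%) and the number of B-cell identity genes above the threshold in every culture (41 of 45, 41 with any culture left out) stayed within 1.5 times or 1 SD of the reported values under every alternative tried. The count of variable genes was 183. It was 1185 at a ratio of at least 1.5 and 6 at 3, and 682, 303 and 43 at a mean of at least 1, 5 and 50 FPKM. It was 281 with equal summed FPKM, 89 with the correction for GC content and length, and 4 to 171 with a culture left out (4 without culture 1, 28 without culture 2). The count of stable genes was 774, and it was 294 at a CV of at most 3%, 2187 at 10%, 1211 and 175 at a mean of at least 1 and 50 FPKM, and 1030 to 2125 with a culture left out, where fewer values enter the CV. The lowest r between cultures was 0.989 over all genes instead of 0.965. The cause of the changes with scaling was not tested. No paired analysis was possible because no groups were compared and no result comes from a test. Depth limits genes near 1 FPKM most, and 716 genes passed that level in only 1 or 2 cultures.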

Other observations

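Interferon-stimulated genes were expressed in the untreated cultures. All 30 genes listed were above 1 FPKM in every culture, against 49.2% of all described genes, and 8 had a mean above 100 FPKM, against 3.03%. IFITM1, a membrane protein that restricts virus entry, was at 911, 463 and 718 FPKM, and ISG15, a ubiquitin-like modifier, was at 666, 349 and 495 FPKM. MX1, an antiviral GTPase, was at 212, 172 and 205 FPKM, whereas CXCL10, an interferon-induced chemokine, was at 1.37, 2.15 and 1.13 FPKM.

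All 20 listed targets of p53 were above 1 FPKM in every culture, against 49.2% of all described genes. CDKN1A, the cell cycle inhibitor p21, was at 268, 194 and 177 FPKM and BAX, a mediator of apoptosis, at 209, 214 and 177 FPKM. Of the 14 with a mean of at least 10 FPKM, culture 1 was the highest in 9, against 32.4% of all genes of that level. Among noncoding RNAs, the snoRNA host genes SNHG8 and GAS5 were at 472, 317 and 344.7 FPKM and at 251, 138 and 154 FPKM, with culture 1 the highest, while MALAT1 was at 29.5, 33.3 and 25.3 FPKM. Hypoxia targets were led by DDIT4 at 316, 211 and 313 FPKM, and 4 of 10 with a mean of at least 10 FPKM were stable, against 13.6% of all genes of that level.

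Replication-dependent histone transcripts, most of which have no poly(A) tail, were above 1 FPKM in every culture for all 22 genes listed. The share over all described genes was 49.2%. HIST1H1C led the list at 157, 157 and 227 FPKM. The median of the 22 histone genes was 6.33 FPKM.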
